A study of Mus musculus with 4 samples.

Results

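The machinery that makes microRNAs and silences mRNAs with them was examined in *Ebf1*-/- FL HPCs that received *Mir195* or an empty virus. The 10 genes are *Drosha*, *Dgcr8*, *Xpo5*, *Dicer1*, *Eif2c1* to *Eif2c4*, *Tnrc6a* and *Tnrc6b*. Every probe that the array annotation assigns to one of these genes, under its present symbol or an older one, was taken. The rule uses no measured value, although the genes were chosen with earlier results of these data known. This gave 10 of the 31829 gene names on the array and 14 of its 39429 probes. *Drosha* is named Rnasen there, and *Eif2c1*, *Eif2c2*, *Eif2c3* and *Eif2c4* are the older symbols of *Ago1*, *Ago2*, *Ago3* and *Ago4*.

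All 4 samples were lineage-negative (Lin-) cells from the livers of *Ebf1*-/- mouse fetuses at mid-gestation, the offspring of *Ebf1*+/- parents, and both groups thus carry the disruption of *Ebf1*, which encodes a transcription factor that B cell development requires. EMPTY samples (2 arrays) were infected with the retrovirus MDH1-PGK-GFP, and *Mir195* samples (2 arrays) with the same vector carrying a genomic segment around *Mir195* that had been amplified from a human leukaemia line, with GFP behind a PGK promoter in both. The cytokines in all cultures were SCF, IL-7 and Flt-ligand at 10 ng/mL each, which drives progenitors toward the B lineage, and the general culture condition of the study places the cells on OP9 stroma. Whether GFP-positive cells were sorted before the RNA was taken is not stated, so that uninfected cells and OP9 cells may contribute, and wild-type cells were not on these arrays. In bulk RNA, fewer cells of a type and less RNA per cell cannot be told apart.

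A microRNA gene is transcribed into a long primary transcript, from which the Microprocessor, the nuclease DROSHA with its RNA-binding partner DGCR8, cuts a hairpin in the nucleus. Exportin 5 carries the hairpin to the cytoplasm, where DICER1 cuts it to a short duplex, and 1 strand of the duplex is loaded into an Argonaute protein. The Argonaute finds mRNAs by pairing with the seed of the microRNA, and GW182 proteins, encoded by *Tnrc6a* and its paralogs, bind the Argonaute and recruit the enzymes that shorten the poly(A) tail. Loss of *Dicer1* or *Ago2* is known to disturb early B cell development, and *Mir195* delivered by a virus passes through the same steps as the cell's own microRNAs.

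The overexpressed microRNA shares its seed with a family that the cells encode themselves, and the sequences are shown because the seed is the part that the Argonautes read. In the RefSeq entries on GRCm38.p6, 10 mature mouse microRNAs from 11 loci hold the same bases 2 to 8, written in capitals here. mmu-miR-195a-5p lies at chr11:70235062-70235082 on the plus strand, and mmu-miR-497a-5p is encoded near it at chr11:70234730-70234751 on the same strand.
mmu-miR-195a-5p: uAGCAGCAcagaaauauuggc
mmu-miR-195b: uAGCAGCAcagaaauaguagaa
mmu-miR-15a-5p: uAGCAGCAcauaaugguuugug
mmu-miR-15b-5p: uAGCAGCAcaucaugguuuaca
mmu-miR-16-5p: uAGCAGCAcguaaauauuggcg
mmu-miR-497a-5p: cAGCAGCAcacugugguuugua
mmu-miR-322-5p: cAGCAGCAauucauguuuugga
The remaining entries with this seed are mmu-miR-6342, mmu-miR-6353 and mmu-miR-6419. The letters that pair with the seed, TGCTGCT, were searched in the 60 bases of every probe as given, where 317 of 39429 probes (0.804%) hold them, and the opposite strand, AGCAGCA, is held by 240 (0.609%). Among the 14 probes of the machinery only 1 has the letters as given and 0 have the opposite ones. It is the *Eif2c2* probe A_55_P2002133, whose bases 7 to 36 are shown with the match in capitals.
*Eif2c2* A_55_P2002133, bases 7 to 36: cttctcttgtgTGCTGCTctgtgctctgtg
A match says only that these letters are in the probe, and whether this stretch of the transcript is untranslated was not determined here. In the study's own list of predicted mouse targets of the microRNA, *Tnrc6a* and *Tnrc6b* are the only members among the 10.

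Of the 14 probes, 0 passed an adjusted p of 0.05 (limma, Benjamini-Hochberg adjustment over all tested probes), in a comparison in which 0% of all 23732 tested probes did. At an unadjusted p under 0.05 there were also 0 of 14, against 8.34% of all tested probes (1980 probes), and the t-test of the study's methods gave 0 of 14 as well. The adjusted p of the 14 probes lay between 0.639 and 0.999. The mean was higher with *Mir195* for 10 probes and lower for 4, where 12589 of all 23732 tested probes were higher and 11143 lower. The median log2 fold change was 0.04, against 0.01 over all tested probes. With median scaling both medians were negative, -0.06 for the members and -0.08 overall. The *Mir195* arrays were both above the EMPTY arrays for 4 probes, those of *Dicer1* and *Eif2c3* and 1 each of *Eif2c1* and *Eif2c2*, where 23.4% of all tested probes did so. Both lay below for 0 probes, against 14.4% overall. All 14 probes were tested, and 13 of them were well above background on all 4 arrays. The exception is the *Drosha* probe A_55_P2039601, described next. It was tested only through the EMPTY arrays, where its mean is higher, and the counts and the median above include it. The labels do not say whether the samples of a virus came from separate cultures or animals, so the p-values measure only the spread between these samples, which may be technical.

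**Figure D1:**
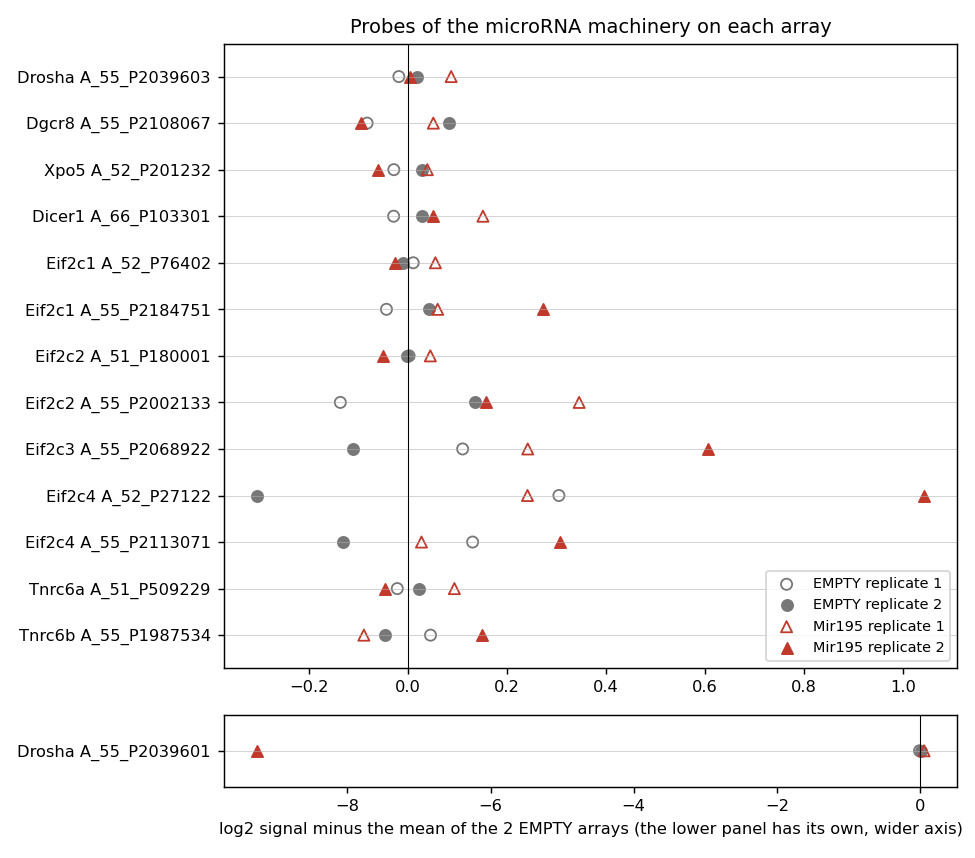
Log2 signal of each of the 14 probes on each array, minus the mean of the 2 EMPTY arrays. Circles are EMPTY and triangles *Mir195* arrays, open for replicate 1 and filled for replicate 2, and the lower panel has a wider axis for the *Drosha* probe A_55_P2039601. Most probes scatter around 0 without separation of the viruses, the *Eif2c3* probe and *Eif2c4* A_52_P27122 spread farthest among the others, and 1 *Drosha* value lies far below the others (-9.26).

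*Drosha* encodes the nuclease of the Microprocessor and has 2 probes, which gave different pictures. For A_55_P2039603, the relative log2 signal (that is, after subtraction of the array's 75th percentile) was 1.95 and 1.98 with EMPTY and 2.05 and 1.97 with *Mir195*. These values overlap between the viruses. By limma, the log2 fold change was 0.05 (SE 0.12, 95% confidence interval -0.26 to 0.35, adjusted p = 0.958). For A_55_P2039601, the same quantity was 1.45 and 1.47 on the EMPTY arrays, 1.52 on *Mir195* replicate 1 and -7.80 on *Mir195* replicate 2. Only the last array stands apart, and the other *Mir195* array lies just above both EMPTY arrays. The fitted log2 fold change of -4.60 (SE 3.03, 95% confidence interval -12.54 to 3.33, adjusted p = 0.808) therefore comes from 1 spot on 1 array. Without *Mir195* replicate 2 it was 0.05, and without *Mir195* replicate 1 it was -9.26 with an adjusted p of 1.4e-06, the only alternative under which this probe was called among the 12 that kept it. The adjusted p ran from 1.4e-06 to 1 over these alternatives.

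The spot behind the low value was recorded by the scanner software as not found. Its mean signal was 36.7, below the local background of 41.0, and so 0.895 times as bright as its surroundings. The software still gave a processed signal of 4.1, from which the -7.80 was taken. That value is therefore not the mean signal minus the local background. The same spot was 62.5, 58.7 and 51.8 times as bright as its background on EMPTY replicates 1 and 2 and *Mir195* replicate 1. On *Mir195* replicate 2, 63 spots were lost in this way, meaning well above background and at least 4 times brighter than it on the other 3 arrays and not well above it there, and on each of the other arrays there were 0. All 63 lay between rows 9 and 72 of 532 and columns 56 and 81 of 85, and the *Drosha* spot is in row 16, column 70. Within this rectangle 63 of 666 bright spots (9.46%) were lost, and outside it 0 of 18377. Of the 10 other bright spots within 2 rows and columns of the *Drosha* spot, 6 were lost. *Metap1*, which is printed in 10 spots with the same sequence, lost 2 of them at 0.957 and 0.977 times their background, while the 8 kept spots on the same array were 58.2 to 78.2 times as bright as theirs. The other *Drosha* probe, in row 343 and column 18, was 101 to 125 times as bright as its background on all 4 arrays. The authors' normalized table holds the same low value, -7.89, where the other arrays have 1.46, 1.49 and 1.55. What removed these spots was not tested.

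**Figure D2:**
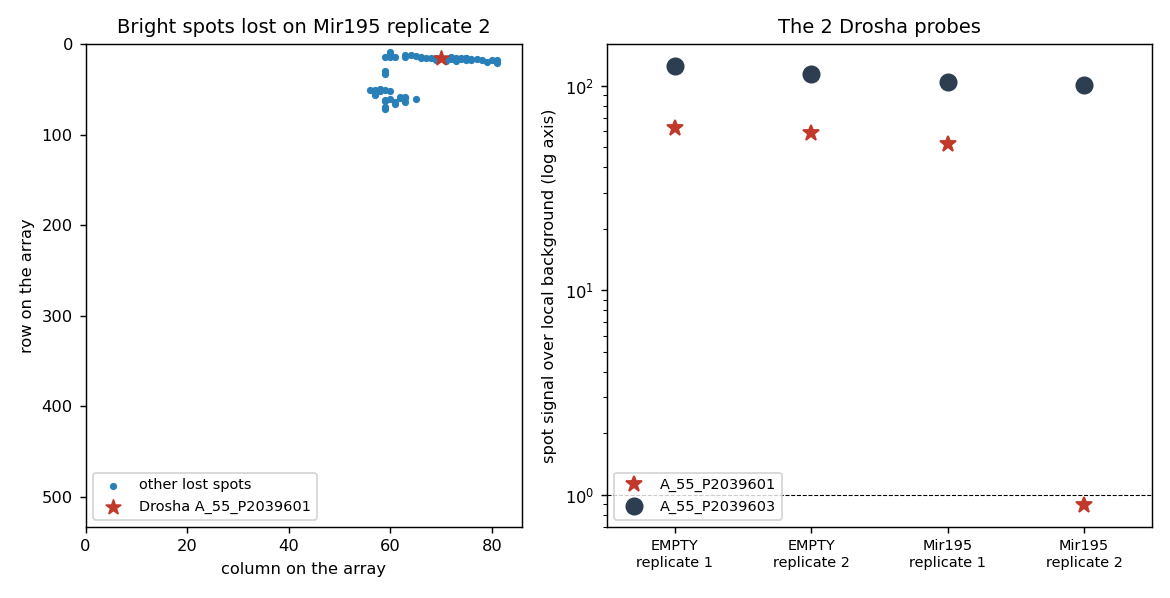
Left, row and column of the 63 bright spots that were lost on *Mir195* replicate 2, with the *Drosha* spot as a star; the axes span the whole array. Right, spot signal over local background (log axis) of both *Drosha* probes on each array, with a dashed line where the signal equals the background. The lost spots form a band and a patch near 1 edge, and A_55_P2039601 is at its background on *Mir195* replicate 2 alone, whereas A_55_P2039603 is between 101 and 125 throughout.

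*Dgcr8*, the RNA-binding partner of DROSHA, has 1 probe. Its relative log2 signal was 0.05 and 0.22 with EMPTY and 0.19 and 0.04 with *Mir195*. Each virus has a higher and a lower array here, and the values overlap almost completely. On the log2 scale the change was -0.02 (SE 0.13, 95% confidence interval -0.37 to 0.33, adjusted p = 0.985). *Xpo5*, which encodes the exporter of hairpins, likewise has 1 probe, with -0.25 and -0.19 with EMPTY and -0.18 and -0.28 with *Mir195*. The *Mir195* arrays span the EMPTY ones. The fitted log2 fold change was -0.01 (SE 0.12, 95% confidence interval -0.32 to 0.30, adjusted p = 0.992). The sign of both values depends on the scaling. It is positive with the 75th percentile taken over the probes detected on every array (8.68e-05 for *Dgcr8*, 0.0111 for *Xpo5*).

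*Dicer1*, the enzyme of the second cut, was 0.37 and 0.43 with EMPTY and 0.55 and 0.45 with *Mir195*. Both *Mir195* arrays are higher, but the lower of them exceeds the higher EMPTY array by less than the gap within either virus. The log2 fold change was 0.10 (SE 0.12, 95% confidence interval -0.21 to 0.41, adjusted p = 0.902). With median scaling it was 0.00372, and in the authors' table the lower *Mir195* array and the higher EMPTY array both read 0.46.

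The Argonautes are the members that carry the microRNA to its target. *Eif2c2* encodes AGO2, which can also cut a fully paired target. Its probe A_51_P180001 read 1.63 and 1.62 with EMPTY and 1.67 and 1.58 with *Mir195*. The EMPTY arrays nearly coincide, and the *Mir195* arrays lie on either side of them. By limma, the log2 fold change was -0.00 (SE 0.12, 95% confidence interval -0.31 to 0.30, adjusted p = 0.999), so that the interval runs from a 1.24-fold decrease to a 1.23-fold increase. The other probe, A_55_P2002133, which holds the letters that pair with the seed, read 0.78 and 1.05 with EMPTY and 1.26 and 1.07 with *Mir195*. Both *Mir195* arrays are higher, *Mir195* replicate 2 barely so. On the log2 scale the change was 0.25 (SE 0.16, 95% confidence interval -0.16 to 0.66, adjusted p = 0.799). The 2 probes differ by 0.25 in their log2 fold change, and both intervals include 0.

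*Eif2c1* encodes AGO1 and has 2 probes. A_52_P76402 read -1.46 and -1.48 with EMPTY and -1.42 and -1.50 with *Mir195*, which overlap, and its log2 fold change was 0.02 (SE 0.12, 95% confidence interval -0.29 to 0.32, adjusted p = 0.988). This value has no settled direction, since it was -0.0576 with quantile normalization and -0.0826 with median scaling. A_55_P2184751 read -4.16 and -4.08 with EMPTY and -4.06 and -3.85 with *Mir195*. Both *Mir195* arrays are higher, and its spots were only 3.03 to 3.39 times as bright as their background. The fitted log2 fold change was 0.17 (SE 0.14, 95% confidence interval -0.19 to 0.52, adjusted p = 0.850).

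*Eif2c3* encodes AGO3, and its single probe gave the lowest p of the members. It read -5.12 and -5.34 with EMPTY and -4.99 and -4.62 with *Mir195*. Both *Mir195* arrays are higher, and this order held under all 5 other background corrections and scalings, the authors' table included. The log2 fold change was 0.42 (SE 0.18, 95% confidence interval -0.04 to 0.89, unadjusted p = 0.0667 from limma's moderated test, adjusted p = 0.639), a 1.34-fold higher mean. The probe is dim, 2.33 to 2.89 times as bright as its background.

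*Eif2c4* encodes AGO4 and has 2 probes. A_52_P27122 read -4.43 and -5.04 with EMPTY and -4.49 and -3.69 with *Mir195*. The viruses overlap, and *Mir195* replicate 2 is the highest array. Its log2 fold change of 0.64 (SE 0.35, 95% confidence interval -0.26 to 1.55, adjusted p = 0.745) became 0.241 when *Mir195* replicate 2 was left out and 1.04 when *Mir195* replicate 1 was. This spot lies within the rectangle that holds the lost spots, in row 40 and column 63, and was 2.03 to 2.94 times as bright as its background on the 4 arrays. A_55_P2113071 read -2.45 and -2.71 with EMPTY and -2.56 and -2.28 with *Mir195*, again with overlap and with *Mir195* replicate 2 highest. By limma, the log2 fold change was 0.17 (SE 0.17, 95% confidence interval -0.27 to 0.61, adjusted p = 0.888), and without *Mir195* replicate 2 it was 0.0274. In the RefSeq annotation *Ago3*, *Ago1* and *Ago4* are consecutive protein-coding genes, between *Tekt2* and *Clspn*, whereas *Ago2* lies elsewhere.

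The largest positive log2 fold changes of the members, those of *Eif2c4* A_52_P27122 and *Eif2c3*, came from spots close to their background. The probes A_55_P2184751 of *Eif2c1*, A_55_P2068922 of *Eif2c3* and A_52_P27122 of *Eif2c4* have mean relative log2 signals under -4. Among all 4997 tested probes in that range, the median log2 fold change was 0.09, the upper quartile was 0.34, and 28.4% had both *Mir195* arrays above both EMPTY arrays, against 14.2% below. Among the 9781 tested probes at 0 and over, the median was -0.02, with 15.7% above and 15.8% below. The changes of *Eif2c3* and *Eif2c4* A_52_P27122 thus exceed the upper quartile of similarly dim probes and that of *Eif2c1* A_55_P2184751 does not. The part of the signal range in these 3 values was not tested.

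The GW182 proteins link the Argonautes to deadenylation. *Tnrc6a*, listed by the study as a predicted target, read -0.10 and -0.05 with EMPTY and 0.02 and -0.12 with *Mir195*. The *Mir195* arrays are the highest and the lowest of the 4. On the log2 scale the change was 0.02 (SE 0.12, 95% confidence interval -0.30 to 0.34, adjusted p = 0.981), whose lower bound is a 1.23-fold decrease. *Tnrc6b*, also a predicted target, read -0.99 and -1.09 with EMPTY and -1.13 and -0.89 with *Mir195*, and here too the *Mir195* arrays enclose the EMPTY ones. The fitted log2 fold change was 0.03 (SE 0.14, 95% confidence interval -0.34 to 0.40, adjusted p = 0.977), whose lower bound is a 1.26-fold decrease. Larger decreases of these 2 mRNAs lie outside the intervals, but the intervals cover only the spread between these samples and not the choice of scaling. Both signs turn with median scaling (-0.0743 for *Tnrc6a*, -0.0675 for *Tnrc6b*).

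**Figure D3:**
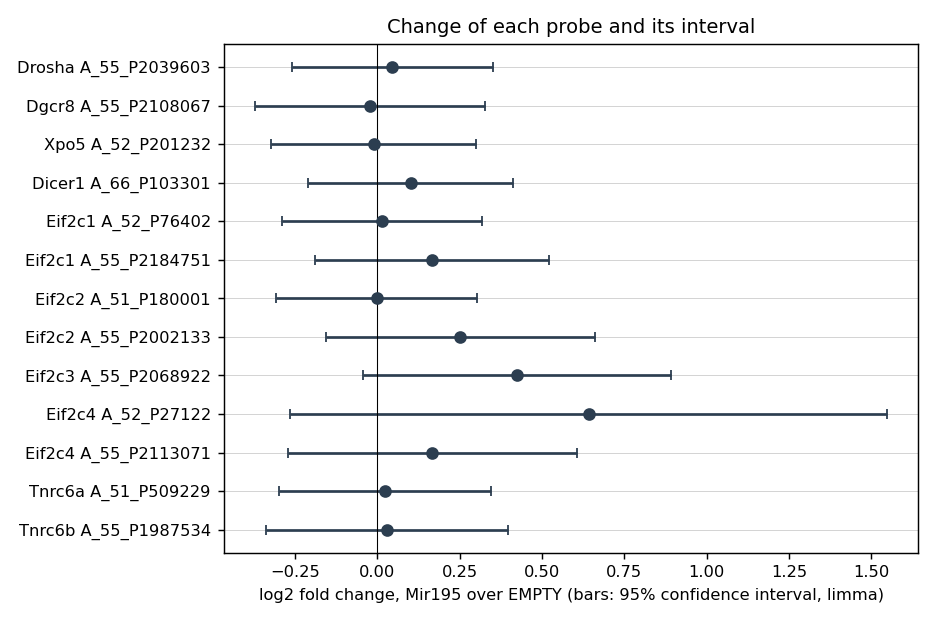
Log2 fold change (*Mir195* over EMPTY) of 13 probes with its 95% confidence interval from limma; the *Drosha* probe with the lost spot (-4.60, interval -12.54 to 3.33) is left out for scale. Every interval includes 0. The narrowest is that of *Eif2c1* A_52_P76402 (-0.29 to 0.32) and the widest that of *Eif2c4* A_52_P27122 (-0.26 to 1.55).

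Arrays of the same virus differed by a median of 0.07 (EMPTY) and 0.17 (*Mir195*) on the log2 scale over the 14 probes, against 0.15 and 0.19 over all tested probes. The difference between the viruses exceeded both of these gaps for 2 of the 14 probes (14.3%), which compares with 24.1% of all tested probes. By the median difference over the members, EMPTY replicate 2 was nearer to *Mir195* replicate 1 (0.07) than the *Mir195* replicates were to each other (0.17). The same order held over all tested probes (0.095 against 0.194).

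Under other processing the members' values moved by amounts similar to their size. Over 14 alternatives, *Dicer1* ranged from 0.00372 to 0.151, *Eif2c3* from 0.242 to 0.606, *Eif2c2* A_55_P2002133 from 0.115 to 0.388 and *Eif2c1* A_55_P2184751 from 0.0601 to 0.275, each positive throughout. Both *Eif2c4* probes were positive throughout as well (0.241 to 1.04 and 0.0274 to 0.308). The probes of *Dgcr8*, *Xpo5*, *Tnrc6a* and *Tnrc6b*, *Eif2c1* A_52_P76402, *Eif2c2* A_51_P180001 and *Drosha* A_55_P2039603 took both signs. None of these 13 probes passed an adjusted p of 0.05 under any alternative, and the lowest was 0.0987 for *Eif2c4* A_52_P27122 without *Mir195* replicate 1, with up to 1 elsewhere.

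**Figure D4:**
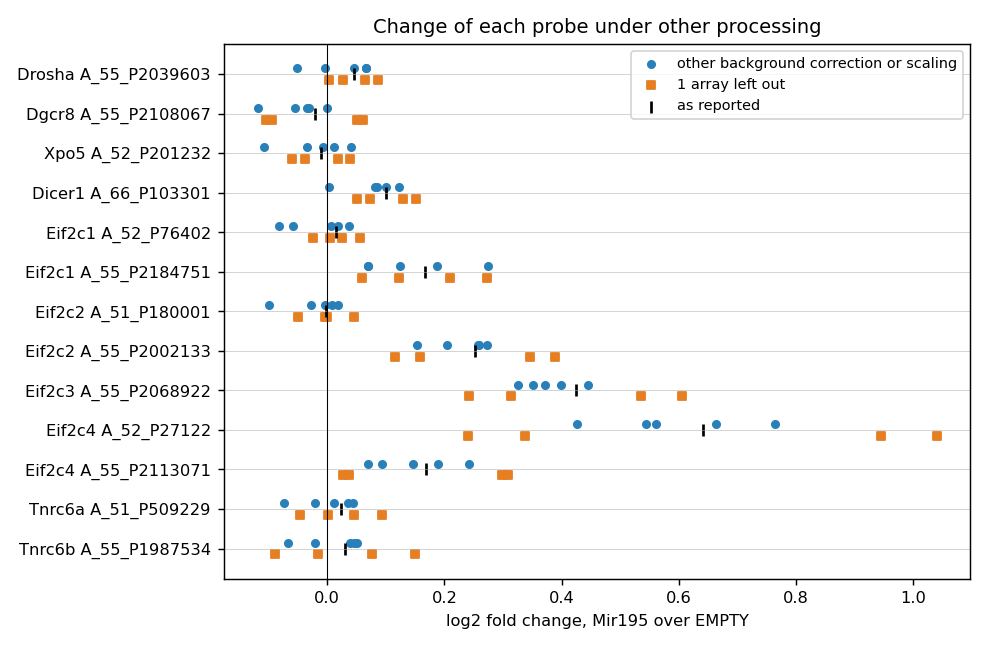
Log2 fold change (*Mir195* over EMPTY) of 13 probes as reported (black bars), under 5 other background corrections or scalings (blue circles) and with each array left out (orange squares). *Dicer1*, *Eif2c3*, both *Eif2c4* probes and 1 probe each of *Eif2c1* and *Eif2c2* stay above 0, with *Eif2c4* A_52_P27122 spread from 0.241 to 1.04, while *Drosha*, *Dgcr8*, *Xpo5* and the *Tnrc6* genes lie on both sides of 0.

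The other genes of the pathway were taken from 6 lists of 61 genes in all, of which 60 have a probe, 89 probes together. *Zswim8*, which encodes a factor of microRNA turnover, has no probe under that name. Of these, 86 probes of 59 genes were tested. As for the members, 0 passed an adjusted p of 0.05. At an unadjusted p under 0.05 there were 3, all with a higher mean with *Mir195*, against 8.34% of all tested probes. The mean was higher for 63 probes and lower for 23, where 12589 of all 23732 tested probes were higher and 11143 lower. The same background applies to the split of each list below. The median was 0.07, and it was -0.0282 with median scaling and 0.0274 without EMPTY replicate 1. For 30 of the 86 probes both *Mir195* arrays were the higher ones and for 3 the lower ones, where the shares over all tested probes are 23.4% and 14.4%. The counts of higher probes include the *Cnot2* probe A_65_P11816, which was tested only because it exceeded background on both *Mir195* arrays. Likewise, the lower means include the *Cnot4* probe A_55_P2118586, which was tested only because it exceeded background on both EMPTY arrays.

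The cofactors of the Microprocessor were tested with 18 probes, 12 with a higher and 6 with a lower mean (median log2 fold change 0.07), and 1 passed an unadjusted p of 0.05. It belongs to *Ddx17*, a helicase that assists DROSHA, whose probe A_66_P119841 read -5.80 and -4.98 with EMPTY and -4.57 and -4.13 with *Mir195*. This probe was the largest positive change of the list, 1.04 (SE 0.32, adjusted p = 0.540), and it was 0.509 with the normexp background correction and 0.622 without EMPTY replicate 1. The other *Ddx17* probe, A_51_P381321, at 891 to 1114 times its background, had 0.13 (adjusted p = 0.876). For A_66_P119841 both *Mir195* arrays are higher, and its spots were 2.15 to 2.59 times as bright as their background. At the other end, *Ncbp2*, a subunit of the nuclear cap-binding complex, had -0.27 (SE 0.17, adjusted p = 0.796). The partners of DICER1, the editing enzymes and the chaperones that load Argonautes were tested with 16 probes, 14 higher and 2 lower (median 0.06), from 0.24 for *Adar*, an enzyme that edits double-stranded RNA (adjusted p = 0.736), to -0.14 for *Snd1*, a nuclease associated with silencing complexes (adjusted p = 0.873). The proteins that act beside the Argonautes were tested with 13 probes, 10 higher and 3 lower (median 0.05). Their extremes were 0.25 for *Pum2*, an RNA-binding repressor (adjusted p = 0.798), and -0.09 for *Fmr1* A_55_P2183110, of an RNA-binding protein of neurons and other cells (adjusted p = 0.946). The other *Fmr1* probes had 0.12 and 0.15 (adjusted p = 0.901 and 0.845), and the other probes of *Ncbp2*, *Adar* and *Pum2* had -0.22, 0.02 and 0.16. Without *Mir195* replicate 2, *Ncbp2* was -0.0912, *Snd1* -0.0541 and *Pum2* 0.0913, and without *Mir195* replicate 1 they were -0.449, -0.228 and 0.411.

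The deadenylation complexes, which the GW182 proteins recruit, had the highest median of the 6 lists, 0.11 over 20 probes, 15 with a higher and 5 with a lower mean. Both *Mir195* arrays were higher for 11 of the 20 and both lower for 0, beside 23.4% and 14.4% of all tested probes, and nothing particular to this list was tested. The counts and the median of this list include the *Cnot2* probe A_65_P11816 and the *Cnot4* probe A_55_P2118586 (-0.03). Each was tested only through the group in which it is higher, *Mir195* for *Cnot2* and EMPTY for *Cnot4*. *Btg1*, which encodes an antiproliferative partner of the deadenylase, was one of 2 probes of this list at an unadjusted p under 0.05. Its probe A_55_P2181191 read 0.61 and 0.35 with EMPTY and 0.82 and 1.40 with *Mir195*, with a log2 fold change of 0.63 (SE 0.24, adjusted p = 0.594) that was 0.337 without *Mir195* replicate 2 and 0.919 when the other *Mir195* replicate was omitted. The other *Btg1* probe, A_55_P2098598, had -0.19 with overlapping arrays, so that the probes of this gene differ in sign. The other is the *Cnot2* probe A_65_P11816, named after its values were seen. *Cnot2* encodes a scaffold of the CCR4-NOT complex, and this probe read -6.11 and -6.22 with EMPTY and -5.50 and -4.85 with *Mir195* (log2 fold change 0.99, SE 0.24, adjusted p = 0.530). Its spot exceeded background with both *Mir195* replicates but with only 1 of 2 EMPTY replicates, so it was tested because of the group in which it is higher, and its values are a description that supports nothing. Without *Mir195* replicate 1 it was 1.31 with an adjusted p of 0.0163, and over the alternatives its adjusted p ran from 0.0163 to 1. The remaining *Cnot2* probes had 0.04 and 0.10. The lowest value of the list was -0.19 for *Btg2* (adjusted p = 0.847), a relative of *Btg1*, whose value ran from -0.322 (EMPTY replicate 2 omitted) to -0.0619 (EMPTY replicate 1 omitted).

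The decapping and decay enzymes were tested with 11 probes, 6 higher and 5 lower (median 0.09), from 0.30 for *Xrn1*, the exonuclease that degrades decapped mRNA (adjusted p = 0.792), to -0.07 for *Edc3*, an activator of decapping (adjusted p = 0.929). The *Xrn1* value was 0.0981 without *Mir195* replicate 2 and 0.493 with *Mir195* replicate 1 left out instead. The genes for tailing and turnover of microRNAs were tested with 8 probes, 6 higher and 2 lower (median 0.06). *Lin28b*, which encodes a fetal inhibitor of let-7 processing, read -1.79 and -1.18 with EMPTY and -0.64 and -1.42 with *Mir195*, with a log2 fold change of 0.46 (SE 0.34, adjusted p = 0.832). Its EMPTY and *Mir195* values overlap, and with 1 array left out the fold change ran from 0.0697 (*Mir195* replicate 1 omitted) to 0.851 (*Mir195* replicate 2 omitted). *Zcchc6*, a uridylyl transferase that acts on let-7 precursors, had the lowest value, -0.00 (SE 0.11, adjusted p = 0.999), which was 0.0283 with quantile normalization.

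**Figure D5:**
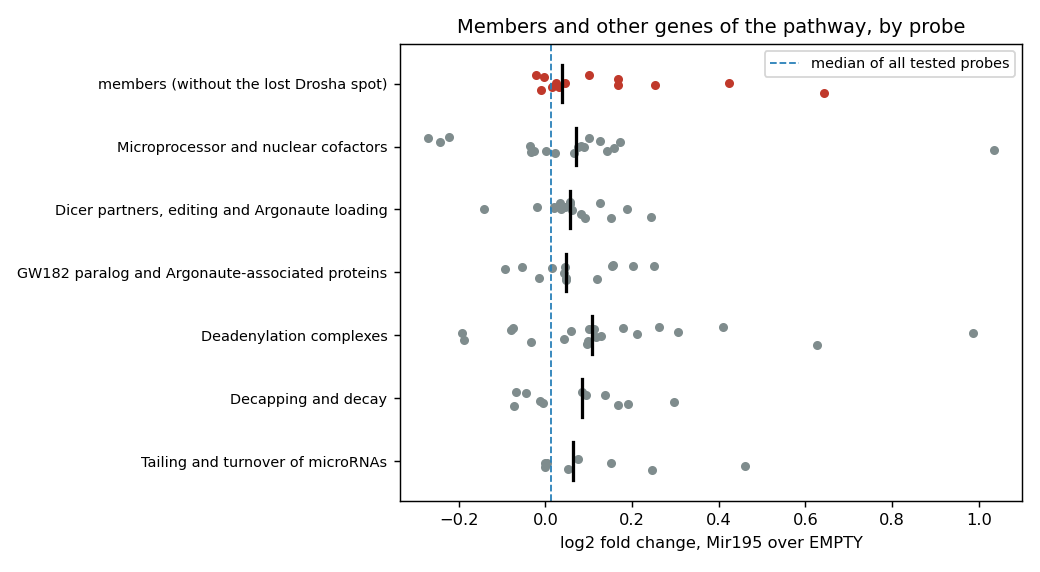
Log2 fold change (*Mir195* over EMPTY) of each tested probe of the members (red; the *Drosha* probe with the lost spot is not drawn) and of the 6 wider lists (grey). Black bars are medians, that of the members over all 14 probes, and the dashed line is the median of all 23732 tested probes (0.01). Medians lie between 0.04 and 0.11, and the points farthest to the right are *Ddx17*, *Cnot2*, *Eif2c4* and *Btg1* probes.

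*Ebf1*, the disrupted gene, read 2.01 and 1.89 on the EMPTY and 1.85 and 2.03 on the *Mir195* arrays, at 79.9 to 107 times its background, and without wild-type cells or the position of this probe in the gene these values do not check the disruption. The haematopoietic markers *Ptprc*, *Kit*, *Flt3* and *Spi1* and the early B lineage markers *Il7r* and *Blnk* exceeded background on all 4 arrays. Of 7 probes for markers of OP9 stroma, 6 were tested, and all 6 were highest on *Mir195* replicate 2, the array on which 5 of the 14 member probes were highest and 6 lowest, with log2 fold changes from 0.09 to 0.40, and *Lum* was not above background. How often *Mir195* replicate 2 was the highest or lowest array over all tested probes was not determined. All 6 probes of T and NK cell markers had lower means with *Mir195* (-0.80 to -0.08), where 11143 of all 23732 tested probes were lower and 12589 higher. Among myeloid markers 8 of 10 means were higher. Of the mast cell and basophil markers 3 of 4 were not above background, and *Cpa3* had -0.65. All 3 tested erythroid probes had lower means and overlapping arrays. They ran from -2.30 for *Epor*, which rests on *Mir195* replicate 2 alone, to -0.22. The part of the mixture of cells in the members' values was not tested.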

How the data were processed

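RNA of 4 samples, 2 of each virus by their titles, was hybridised to single-dye Agilent 4x44K v2 mouse arrays. The intensity of every spot was deposited by the authors as given by Feature Extraction (version 11.5.1.1 in the submitters' processing notes, 9.1.3.1 in the file headers). This software corrects for background and a spatial trend and flags outliers and spots well above background. Its correction is not a subtraction alone. For *Drosha* A_55_P2039601 on EMPTY replicate 1, the mean signal was 2502 and the processed signal 3088. The authors also deposited log2 values normalized to the 75th percentile, and these correlated with the values used here at r = 0.998 on each array. All 4 arrays lie on 1 slide and 1 scan, EMPTY in positions 1 and 2 and *Mir195* in 3 and 4, so position and virus cannot be told apart.

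From the intensity, log2 values were averaged over the spots of a probe without outlier spots (21 to 65 per array), and the 75th percentile of the array was subtracted. No spot was saturated. On each array 23658 to 24672 probes exceeded background by this flag. Of 23802 probes that did so with both replicates of either virus, 70 had no usable spot on an array, and 23732 were tested with lmFit and eBayes of limma 3.58.1 (R 4.3.3, files read with data.table, version 1.17.8), two-sided, with Benjamini-Hochberg adjustment and a threshold of 0.05. On simulated data that kept the spread of each probe, this fit called 41.6% of 4-fold changes and 0.2% of 2-fold changes. The simulation took the spread observed on these few arrays as the true one and gave both viruses the same spread. The percentages hold for that setting only. The number of arrays limits the precision, and an exact permutation test of 2 against 2 cannot give a p under 0.333. No level was compared between probes.

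All probes of the 10 genes are named, with the largest rise and fall of each wider list among probes that exceeded background on every array. The members and lists were chosen with earlier results of these data known. The alternatives were normexp (offset 50), quantile normalization, median scaling, the 75th percentile over detected probes, the authors' table, 2 other filters, eBayes with trend and robust estimation, a replicate block, each array left out and the methods' one-sample t-test of log2 ratios. A crossed pairing and the omission of lost spots were added after seeing the data. Sequences of microRNAs are RefSeq's on GRCm38.p6, those of probes are the array's. No genome build is named for the probes, and gene positions are not given.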

Additional observations from a re-analysis of the deposited data

How the results depend on the processing

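With 2 arrays per virus, only large changes could pass the threshold, and the dim *Eif2c1*, *Eif2c3* and *Eif2c4* probes are limited by signal over background. The count of called members was 0 under every alternative that kept all arrays, and 0 to 1 with 1 array left out, the call being the *Drosha* probe with the lost spot without *Mir195* replicate 1. Over all probes that omission gave 904 calls, which rest on a lone *Mir195* array assumed to vary like the EMPTY arrays. The count for the wider lists was likewise 0 to 1 with 1 array left out, and 10 of their probes had an unadjusted p under 0.05 without *Mir195* replicate 1 (17.6% of all tested probes there), against 3. With the normexp correction 2 members had an unadjusted p under 0.05 (lowest adjusted p 0.275), as did 15.9% of all tested probes.

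The median of the members was -0.0599 with median scaling, and that of the wider lists -0.0282. With 1 array left out, the latter ran from 0.0274 to 0.100. The probes without overlap were 2 with median scaling (*Eif2c1* A_55_P2184751 and *Eif2c3*) and 2 in the authors' table (*Eif2c3* and *Eif2c4* A_52_P27122), against 4, and there were 6 with normexp and 5 each with quantile normalization and the percentile over detected probes. The cause of these shifts was not tested. The other 52 values of the summaries were labelled unchanged. A count got this label if its ratio to the main count was small, and a median if it moved by no more than the spread of the array medians. The counts of 5 and 6 without overlap are among these 52.

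The counts given next include alternatives that cannot change a log2 fold change, such as eBayes with trend and robust estimation. Signs turned for values near 0 and for the *Drosha* probe with the lost spot, and 24 of 194 values of member probes and 5 of 156 of named wider probes were reversed. With median scaling these were *Drosha* A_55_P2039603 (-0.0523), *Eif2c1* A_52_P76402 (-0.0826), *Tnrc6a* (-0.0743) and *Tnrc6b* (-0.0675). With quantile normalization they were *Eif2c1* A_52_P76402 (-0.0576), *Eif2c2* A_51_P180001 (0.00855), *Tnrc6b* (-0.0213) and *Zcchc6* (0.0283). With the percentile over detected probes they were *Dgcr8* (8.68e-05), *Eif2c2* A_51_P180001 (0.0192), *Xpo5* (0.0111) and *Zcchc6* (0.0194). In the authors' table they were *Drosha* A_55_P2039603 (-0.00368), *Tnrc6a* (-0.0204) and *Zcchc6* (0.00613), and with normexp *Xpo5* (0.0402). With 1 array left out, values of both signs were spanned by *Dgcr8* (-0.104 to 0.0611), *Drosha* A_55_P2039601 (-9.26 to 0.0549), *Eif2c1* A_52_P76402 (-0.0251 to 0.0555), *Eif2c2* A_51_P180001 (-0.0495 to 0.0453), *Tnrc6a* (-0.0469 to 0.0938), *Tnrc6b* (-0.0888 to 0.149), *Xpo5* (-0.0597 to 0.0392), *Fmr1* (-0.311 to 0.126) and *Zcchc6* (-0.0193 to 0.0153).

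The replicate numbers share no stated culture, and the differences between replicates 1 and 2 of the 2 viruses correlated at -0.101 across probes. With the replicate block 0 members and 0 wider probes were called (lowest adjusted p 0.384 and 0.120), and 5 probes overall. With the crossed pairing, chosen after seeing the data, 0 were called among the members, the wider lists and all probes. Without the probes of the lost spots, also chosen after seeing the data, the median of the members was 0.0455.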
